A study of Arabidopsis thaliana with 8 samples.

Results

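The comparison set the 4 arrays of seedlings that carry an *hda6* allele against the 4 arrays of seedlings with functional *HDA6*, and asked which transcripts changed in both alleles and against both kinds of control plant. These 8 arrays are all the arrays of the series, 2 for each of 4 genotypes, given as biological replicates in the deposited design. The lines with an *hda6* allele were *ros1-1 hda6-10* and *ros1-1 hda6-9*, below called *hda6-10* and *hda6-9*, and those with functional *HDA6* were *ros1-1* and the C24 wild type. All 4 lines are in the C24 accession and carry an *RD29A::LUC* luciferase transgene, and all seedlings were 12 days old and spent 1 day at 4 °C before harvest. Both alleles came from a T-DNA mutagenized *ros1-1* population, each as a single mutant line, with a T-DNA near the end of the coding sequence in *hda6-9* and a small deletion in the first exon in *hda6-10*. The *ros1-1* mutation is therefore in both allele lines and in the *ros1-1* line but not in C24, and no line had an *hda6* allele without it.

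HDA6 is a histone deacetylase of the RPD3 type. It removes acetyl groups from histones and is known for keeping transposable elements, ribosomal RNA gene copies, transgenes and a number of endogenous genes silent, often at loci that also carry DNA methylation. ROS1 works in the opposite direction on DNA, as a glycosylase that takes methylated cytosine out of target sites, so that reporter genes next to methylated sequence become silent when *ROS1* is lost.

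Signals are log2 values minus the 75th percentile of the same array, so 0 is the signal that 75% of the probes on that array stayed below. Tests covered 35380 of 43603 probes, those that both arrays of some genotype read well above background, less 1 probe without a value in a genotype. A call needed an adjusted p under 0.05 from limma (Benjamini-Hochberg) and a difference above 2-fold between the mean of both alleles and the mean of *ros1-1* and C24. A probe was counted as changed in common if, in addition, each of the 4 differences between an allele and a control genotype was above 2-fold in the same direction. The error in these tests is the spread between arrays of one genotype, so adjusted p does not measure variation between lines. Between 77.2% and 80.6% of the spots of an array were well above background and none was saturated. Across probes, Pearson's r was 0.979 to 0.991 among the *hda6* arrays, 0.984 to 0.993 among the arrays with functional *HDA6*, and 0.959 to 0.968 between these sides, as a description over probes. Both alleles fell on one side of the leading principal component (57.5% of the variance) and both control genotypes on the other. Green tissue markers (*RBCS1A*, *LHCB1.3*, *LHCB2.1* and *PSAD1*) were well above background, with differences of 0.16 to 0.30 on the log2 scale and no call.

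The *HDA6* transcript (AT5G63110) itself was not changed in common. The brighter of its probes read -1.76 and -1.78 in *hda6-10* and 0.90 and 0.84 in *hda6-9*, against -0.17 and -0.20 in *ros1-1* and -0.31 and -0.24 in C24. It was thus below the controls in one allele and above them in the other, and the alleles differed by -2.64 (*hda6-10* minus *hda6-9*, adjusted p = 0.000423), while the mean of both alleles differed from the controls by -0.22 (standard error 0.050, adjusted p = 0.036). That mean stands for neither allele, and with genotype as a random block its adjusted p was 0.89. The dimmer probe gave -7.74 and -7.75 in *hda6-10* and -4.97 and -4.85 in *hda6-9*, against -6.37 and -6.45 in *ros1-1* and -6.30 and -6.31 in C24, with a difference between alleles of -2.83 (adjusted p = 0.000423). Where these probes lie relative to either mutation is not given in the sources used here, so they check the labels only as far as the arrays of each genotype read alike. Of the 10 genes on a list of HDA6 partners, such as *FVE*, *FLD*, *LDL1* and *HDC1*, none was called, and their differences lay between -0.22 and 0.36.

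With the *hda6* alleles more transcripts were raised than lowered. Of 35380 tested probes 2011 (5.68%) were called, and 1493 (4.22%) were raised and 518 (1.46%) were lowered, and of the raised probes 1356 had no overlap between the 4 *hda6* arrays and the 4 control arrays, as had 413 of the lowered ones. Over all tested probes, 12.3% had all *hda6* arrays higher and 7.73% had all lower. Changed in common were 1063 raised probes (3% of those tested) and 227 lowered probes (0.642%), which is 71.2% of the raised and 43.8% of the lowered calls. The raised probes in common belonged to 646 annotated genes and the lowered ones to 171. The median rise in common was 2.55 on the log2 scale (5.86-fold) and the median fall 1.86 (3.64-fold), and 261 probes rose in common by over 16-fold, against 5 that fell by as much. These medians and counts use the measured signals, also for 272 raised probes detected on all 4 *hda6* arrays but no control array. The same holds for 33 lowered probes detected on the 4 control arrays alone. For such probes only a lower bound of the fold can be given. As whole seedlings were extracted, fewer cells of a type and less RNA per cell cannot be told apart in any of these differences.

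**Figure D1:**
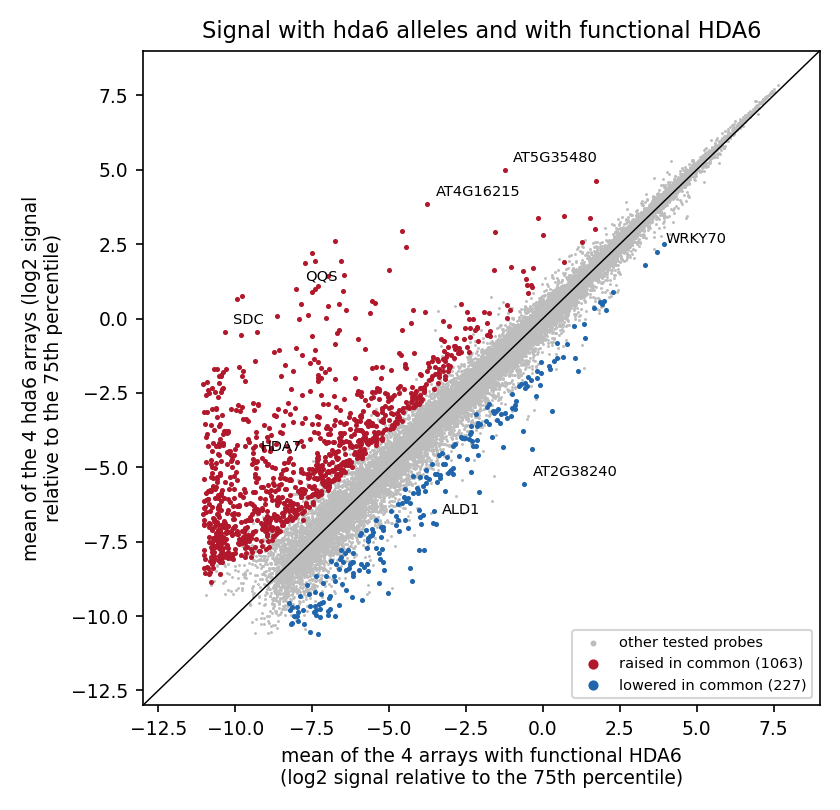
Each point is a tested probe, with its mean log2 signal relative to the 75th percentile over the 4 *hda6* arrays on the vertical axis and over the 4 arrays with functional *HDA6* on the horizontal axis, and a diagonal where both are equal. The 1063 probes raised in common (red) lie mostly at low signal in the control plants and the 227 lowered in common (blue) lie along the lower edge of the cloud.

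The transcripts raised in common had low signals in plants with functional *HDA6*. Their median signal was -4.84 in *hda6-10* and -4.75 in *hda6-9*, against -8.07 in *ros1-1* and -7.99 in C24. The signal was well above background on all 8 arrays for 508 of them, and on all 4 *hda6* arrays but no control array for 272. For the transcripts lowered in common the median was -5.99 in *hda6-10* and -6.24 in *hda6-9*, against -4.01 in *ros1-1* and -4.03 in C24, with 143 detected on all 8 arrays and 33 on the 4 control arrays alone. The alleles differed from each other at 33 of the 1063 raised probes, with *hda6-10* higher at 20 of them, and at 5 of the 227 lowered ones, with *hda6-10* higher at each. Between *ros1-1* and C24, 37 of the raised probes differed, 27 of them with C24 higher, as did 1 of the lowered ones. Beyond the common set, the raised calls held 60 probes past 2-fold against both controls in *hda6-10* only and 45 in *hda6-9* only, and the lowered calls held 32 and 64. These are patterns of 2-fold limits and not tests of a difference between alleles.

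The arrays lay on 4 slides, each scanned on its own. Both *hda6-10* arrays shared a slide with 1 *ros1-1* array, the second slide held 1 array each of *hda6-9* and *ros1-1*, a further *hda6-9* array was by itself, and C24 had a slide to itself. For C24 and between the alleles, genotype and slide cannot be told apart. Within the slides that held both an allele and *ros1-1*, 1038 and 1028 of the 1063 raised probes and 216 and 194 of the 227 lowered ones were past 2-fold in the same direction. The common set was chosen with these same arrays, so these counts are a description and no check on slide. With slide as a fixed block and *ros1-1* as the only control, 1062 raised and 183 lowered probes were counted in common, which held 851 of the 1063 raised probes and 77 of the 227 lowered ones. After normexp background correction, 448 raised and 69 lowered probes were counted in common, while all 1063 of the original raised probes and 204 of the 227 lowered ones kept their sign. Leaving out C24 replicate 1 cut the probes lowered in common to 110.

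Among genes detected on every array, the largest rise was that of *QQS* (AT3G30720), an orphan gene that affects leaf starch. It read 0.97 and 1.16 in *hda6-10* and 0.79 and 1.07 in *hda6-9*, against -7.72 and -8.26 in *ros1-1* and -8.33 and -7.73 in C24, a rise of 9.01 (standard error 0.19, adjusted p = 4.49e-06). All 4 *hda6* arrays lay within 0.4 log2 units of each other and far from every control array. AT3G43572 rose by 8.41 (standard error 0.16), with 0.93, 1.06, 1.32 and 1.07 on the *hda6* arrays, against -8.02 and -7.98 in *ros1-1* and -6.29 and -6.97 in C24. AT5G35480 read 4.92 and 4.96 in *hda6-10* and 4.91 and 5.11 in *hda6-9*, against -0.86 and -1.14 in *ros1-1* and -1.29 and -1.66 in C24. It rose by 6.21 (standard error 0.12) and was well detected in control seedlings too. AT4G16215 behaved likewise, at 3.73, 3.68, 4.05 and 3.95 on the *hda6* arrays, against -3.71, -4.44, -3.13 and -3.75 on the control arrays (a rise of 7.61, standard error 0.21). The others of the 10 largest rises were AT5G01080 (7.11), AT3G43833 (6.91), AT3G54730 (6.62), AT3G14670 (6.62), AT1G35320 (6.25) and AT3G28899 (5.83), for which adjusted p ran up to 0.00011 and no array of one side overlapped the other.

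**Figure D2:**
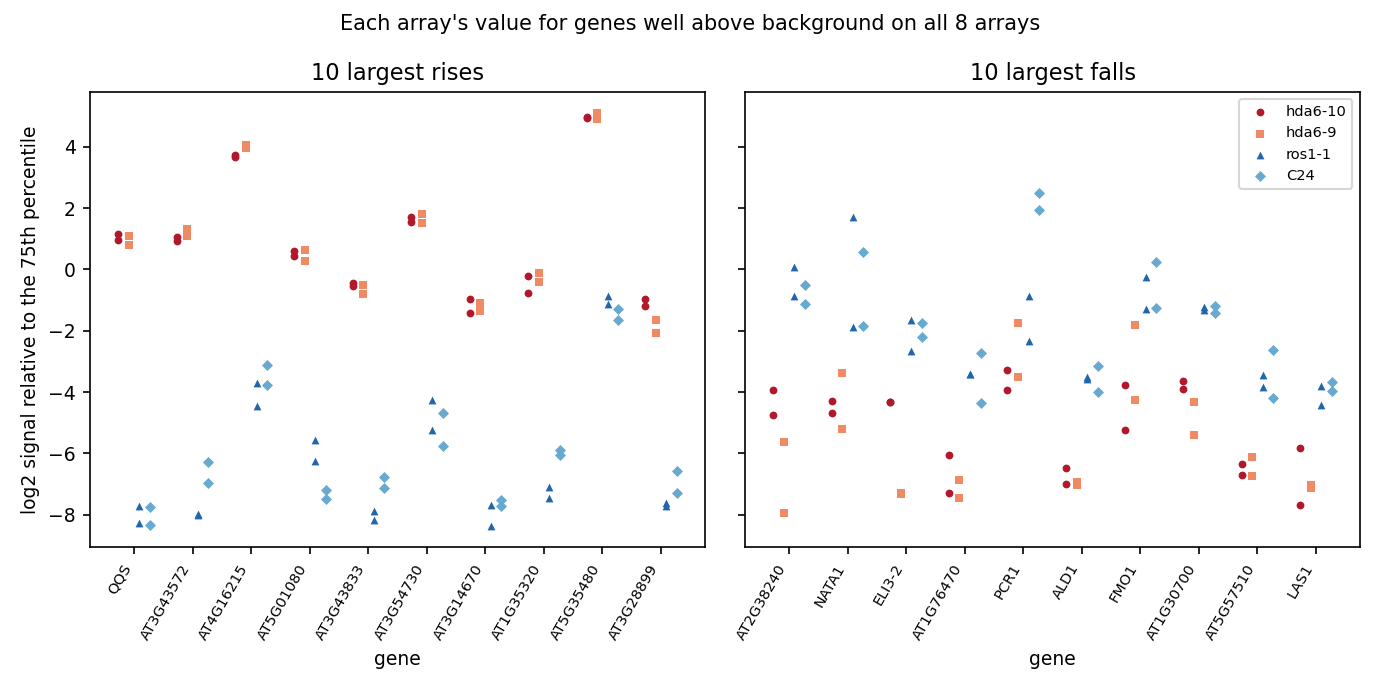
Log2 signal relative to the 75th percentile for each of the 8 arrays, by genotype, for the 10 annotated genes with the largest rise (left) and the 10 with the largest fall (right) in common among probes detected on every array. For the rises the 4 *hda6* values sit together and apart from the controls, whereas for the falls the values spread more widely, as for *NATA1* with -1.87 and 1.71 in *ros1-1*.

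For genes with no control array well above background, only a lower bound of the rise can be given, set by the lowest signal well above background on each control array. *SDC* (AT2G17690), an F-box gene that is silent where its upstream repeats are methylated, read -0.96 and -0.60 in *hda6-10* and -0.25 and -0.02 in *hda6-9*, against -10.70 and -10.94 in *ros1-1* and -8.96 and -10.74 in C24. It was at least 390-fold higher in the alleles (adjusted p = 4.84e-05). AT5G41660, which the study followed as a target of HDA6, read -2.11, -2.48, -2.37 and -2.44 on the *hda6* arrays, against -10.11, -10.63, -10.39 and -10.48 on the control arrays, and was at least 114-fold higher (adjusted p = 3.03e-06). The *hda6* arrays of this gene agree within 0.4 log2 units, and no control array detected it. AT4G08691 was at least 398-fold, AT3G42723 at least 200-fold, AT4G18900 at least 160-fold and AT5G28919 at least 157-fold higher, each with all *hda6* arrays well above background.

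A list of 9 genes known as silenced loci had 7 tested members, of which 4 were raised and none lowered, all 4 in common. The median of the list was 1.56, against 0.025 over all 21435 genes tested, of which 4.25% were raised and 1.62% lowered by their brightest probe, 2.91% and 0.756% in common. Besides *QQS*, *SDC* and AT5G41660, *PHE1* (AT1G65330), an imprinted MADS-box gene, rose by 1.56 (standard error 0.13, adjusted p = 0.0011), with -5.86, -6.29, -5.72 and -6.04 on the *hda6* arrays, against -7.38, -7.37, -7.83 and -7.58 on the control arrays, though with normexp correction the difference was 0.64 and not called. *EPF2*, *MRD1* and *BNS* were not called, at 0.38, 0.33 and 0.27. The list was drawn up with results of these data known, so its count is a description.

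Of 17 tested histone deacetylase genes, 2 were raised, both in common, and none was lowered. *HDA7* (AT5G35600), a class I relative of *HDA6*, read -4.53 and -5.01 in *hda6-10* and -4.64 and -4.73 in *hda6-9*, against -8.69 and -8.42 in *ros1-1* and -9.67 and -10.96 in C24. It was well above background on all *hda6* arrays and on 1 of 4 control arrays, with a fitted rise of 4.71 (standard error 0.30, adjusted p = 0.00034). *HDA18* (AT5G61070), which acts in root epidermal patterning, rose by 1.54 (standard error 0.12), with -2.84, -3.22, -2.46 and -2.37 on the *hda6* arrays, against -4.34, -4.61, -3.96 and -4.15 on the control arrays. The close relatives *HDA19* and *HDA9* stayed at 0.06 and -0.14, not called.

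In the DNA methylation machinery, 1 of 25 genes passed the test and limit, *CLSY1* (AT3G42670, listed as *CHR38*), whose SNF2-type protein takes part in making small RNAs for DNA methylation. It rose by 1.29 (standard error 0.072, adjusted p = 0.00021), with -1.21, -1.25, -0.97 and -1.07 on the *hda6* arrays, against -2.30, -2.52, -2.48 and -2.36 in the control plants. *MET1*, the maintenance methyltransferase for CG sites, differed by 0.54 and *RDR2* by 0.54, both under 2-fold, and the list had a median of 0.25. None of the 6 DNA demethylation genes was called. The *ROS1* transcript read -0.24, -0.03, 0.09 and -0.15 on the *hda6* arrays, against 0.33 and 0.52 in *ros1-1* and 0.66 and 0.64 in C24, a difference of -0.62 (adjusted p = 0.0085) with no overlap. *DML3* differed by -0.56 on average, and the alleles were apart by 1.21 (*hda6-10* minus *hda6-9*, adjusted p = 0.015), with *hda6-9* at -1.24 against *ros1-1* and -1.09 against C24 and *hda6-10* at -0.03 and 0.12.

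Several paralogues of methylation genes were raised. This list, like those of ARGONAUTE, AGAMOUS-like, CYP705A, WRKY, pollen wall and salicylic acid genes below, was drawn up after the values had been seen, so its count supports nothing. Over all 21435 genes tested, 4.25% were raised and 1.62% lowered. Members that no control array detected, such as *DRM1*, *MS2* and *AGL36*, passed the filter on dim signals only through the *hda6* arrays. Of 14 tested DNA methyltransferase and VIM genes, 5 were raised and none was lowered, 4 of them in common. *MET2a* (AT4G14140), a paralogue of *MET1*, read -4.43, -4.22, -4.08 and -3.99 on the *hda6* arrays, against -6.92, -7.13, -6.93 and -7.28 on the control arrays, a rise of 2.89 (adjusted p = 4.15e-05). The *CMT1* chromomethylase gene rose by 3.35 with 1 C24 array set aside as an outlier spot, and keeping that spot ended the call (adjusted p = 0.055). *DRM1*, a paralogue of the de novo methyltransferase *DRM2*, was at least 5.21-fold higher, a call lost with normexp correction (0.84 on the log2 scale), with a further difference between the alleles of -1.02 (*hda6-10* minus *hda6-9*, adjusted p = 0.044). *VIM5* rose by 1.64, a call that was lost with 6 of the 8 arrays left out in turn (adjusted p up to 0.10).

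Of 9 tested ARGONAUTE genes, 3 were raised, all in common, and none was lowered. *AGO9* (AT5G21150), whose product binds small RNAs in the ovule, read -3.13 and -4.22 in *hda6-10* and -2.79 and -2.64 in *hda6-9*, against -7.26 and -8.10 in *ros1-1* and -8.94 and -8.60 in C24, a rise of 5.03 (adjusted p = 0.00027) with 2 control arrays above background. *AGO5*, also known from reproductive tissue, rose by 4.35 with 1 C24 spot set aside, and *AGO3* by 1.32. Of 74 AGAMOUS-like genes with a probe, which encode MADS-box factors, only 39 passed the filter and were tested. Of the tested members 9 were raised and 2 lowered, 6 raised in common. These were *AGL91* with a rise of 3.28, *AGL36*, at least 3.65-fold higher, *AGL64*, at least 2.85-fold higher, *AGL86*, at least 2.02-fold higher, *AGL90* with 1.71 and *AGL17* with 1.28. With normexp correction *AGL36*, *AGL64*, *AGL86*, *AGL90* and *AGL17* differed by 0.63, 0.53, 0.49, 0.62 and 0.59 on the log2 scale and were not called. The calls of *AGL86*, *AGL90* and *AGL17* were lost with 7, 6 and 7 of the 8 arrays left out in turn (adjusted p up to 0.12). In the CYP705A group of cytochrome P450 genes, 7 of 20 were raised, 5 in common, led by *CYP705A25* with 2.61 and *CYP705A13* with 2.38.

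Several genes of the pollen wall and tapetum were raised in these seedlings. Of 24 listed genes 14 were tested and 7 were raised, all in common, while none was lowered; the other 10 did not pass the filter on dim signals. *GRP20* (AT5G07560), an oleosin-like protein of the pollen coat, read -1.74 and -1.95 in *hda6-10* and -2.28 and -1.63 in *hda6-9*, against -6.88 and -7.21 in *ros1-1* and -7.95 and -7.13 in C24, a rise of 5.39 (standard error 0.24, adjusted p = 7.89e-05). Its neighbour *GRP19* rose by 5.47, with 2 of 4 control arrays above background. *CYP98A8*, a P450 for pollen phenolamides, was at least 6.14-fold higher and *MS2*, a fatty acyl reductase for sporopollenin, at least 4.40-fold higher, but with normexp correction they differed by 0.80 and 0.63 on the log2 scale and were not called. *CALS5*, a callose synthase of the microspore wall, rose by 2.37 at the brighter of its 2 probes, while the other was not called. *LAP5*, a polyketide synthase, rose by 1.60 and *TKPR2*, which acts after it, by 1.18. Each of these rises had no overlap of arrays. *LAP6* and *TKPR1*, of the same sporopollenin pathway, were not called, at 0.36 and -0.34. Of the mature pollen markers, *VGD1* was not well above background on any array and *AT59* differed by 0.03, and their summed signal was 0.0068 to 0.0109 on the *hda6* arrays and 0.00725 to 0.0101 on the control arrays, in multiples of the 75th percentile.

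**Figure D3:**
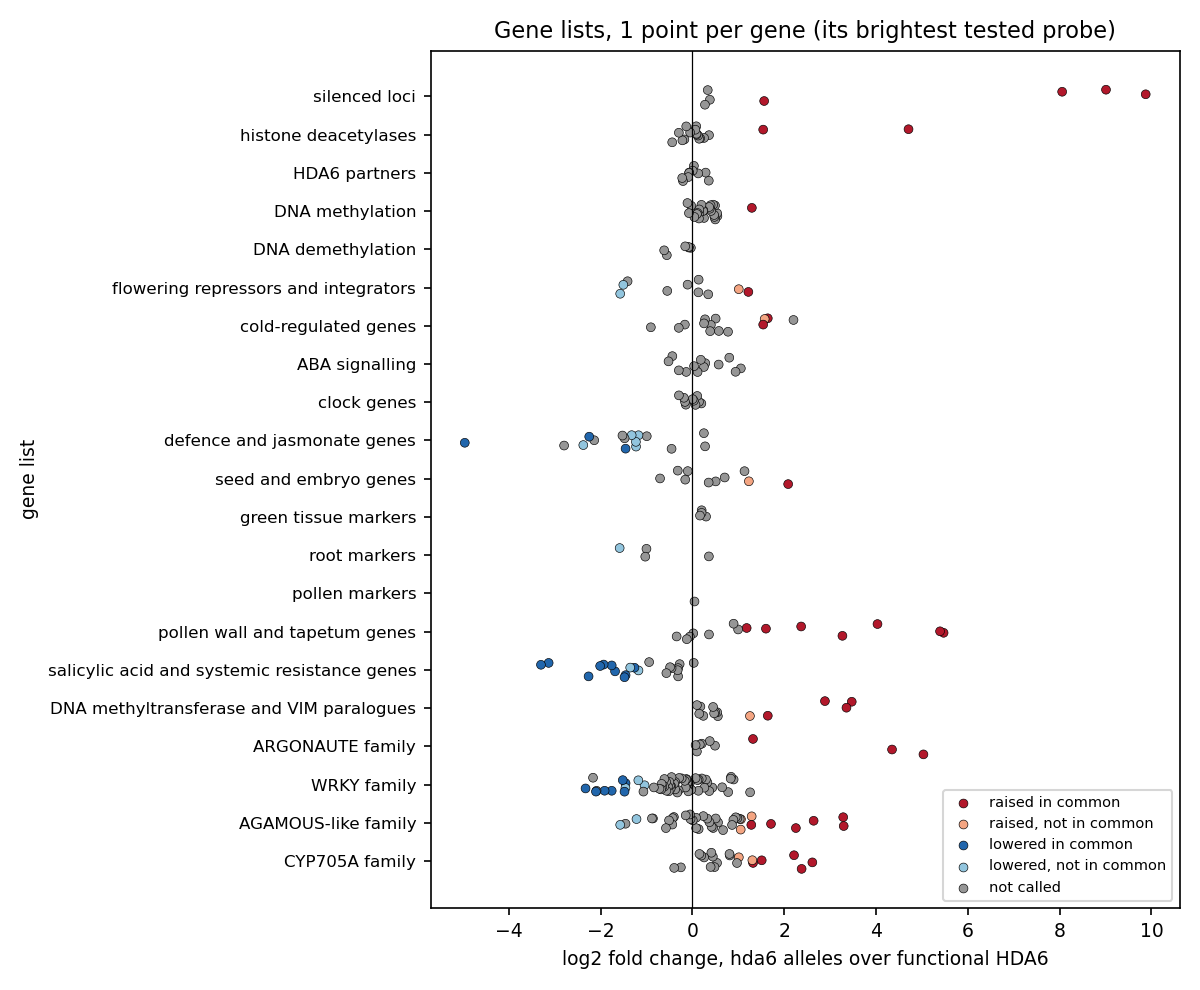
Log2 fold change of the *hda6* alleles over the lines with functional *HDA6* for every tested gene of each list, by its brightest probe, coloured by call; the last 7 lists were drawn up after the values had been seen. Silenced loci reach 9.87, at *SDC*, which no control array detected and whose lower bound is 8.61. Pollen wall genes reach 5.47 and ARGONAUTE genes 5.03, and the defence, salicylic acid and WRKY lists lie mostly below 0.

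Of the tested genes for seeds, flowering and cold response, 10%, 10% and 14.3% were raised in common, against 2.91% of all genes tested. These are 1, 1 and 2 genes, on lists drawn up with results of these data known. Of 10 tested seed and embryo genes, 2 were raised, and *SESA2*, a seed storage albumin, was raised in common by 2.09, with -5.16, -5.13, -4.06 and -5.92 on the *hda6* arrays, against -7.18, -6.10, -7.36 and -7.97 on the control arrays; the call was lost with 6 of the 8 arrays left out in turn (adjusted p up to 0.092). *CRU3* and *CRA1*, main seed storage globulins, were at 0.35 and -0.10. Among 10 flowering genes, *MAF4*, an *FLC*-like repressor of flowering, was raised in common by 1.22 (standard error 0.082), with -0.55, -0.54, -0.63 and -0.36 on the *hda6* arrays, against -1.95, -1.89, -1.65 and -1.47 on the control arrays. Its tandem neighbour *MAF5* rose by 1.01 (0.89 and not called with normexp correction), against C24 by less than 2-fold, and *FLC* itself differed by 0.34 (adjusted p = 0.19). Of 14 cold-regulated genes 3 were raised, 2 of them in common. *COR15A*, which protects chloroplast membranes in the cold, read -0.68, -1.28, -1.03 and -1.56 on the *hda6* arrays, against -2.18, -2.66, -2.78 and -3.09 on the control arrays, a rise of 1.54 (adjusted p = 0.0069). The adjacent *COR15B* rose by 1.64, from 3 *hda6* arrays since 1 spot was set aside as an outlier. None of 13 abscisic acid signalling genes and none of 10 clock genes was called. These tests take the mean over both alleles. All of the listed abscisic acid genes but *HAI3* and *ABI5* differed between the alleles past 2-fold at an adjusted p under 0.05, in either direction. *HAI1* was above both controls in *hda6-10* and below both in *hda6-9*, and the alleles were apart by 5.98 (*hda6-10* minus *hda6-9*, adjusted p = 0.028). For *PYL5* they were apart by -1.90 (adjusted p = 0.033). Slide and allele cannot be told apart in these differences. *ABI5*, a transcription factor of abscisic acid responses, differed by 0.94 (adjusted p = 0.0017), under the 2-fold limit.

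Some averages over both alleles stand for opposite or unequal levels. *RD29A* (AT5G52310, listed as *LTI78*), whose promoter drives the reporter, read 0.21 and -0.92 in *hda6-10* and -4.79 and -4.31 in *hda6-9*, against -5.94 and -6.24 in *ros1-1* and -2.00 and -4.43 in C24. The mean difference of 2.20 missed the call (adjusted p = 0.0501), and *hda6-9* lay within the range of the control arrays. At this probe the alleles were apart by 4.19 (adjusted p = 0.053). The dimmer *RD29A* probe was called, at 1.90 (adjusted p = 0.030), with the alleles apart by 5.92 (adjusted p = 0.018), but not with normexp correction (0.59). It was well above background on only 2 of 4 *hda6* arrays and 1 of 4 control arrays. Its *hda6-9* values of -10.57 and -10.20 were not, so 5.92 rests in part on undetected signal. *CBF3* (listed as *DREB1A*), a cold-induced activator of *RD29A*, had -1.77 and -1.69 in *hda6-10* and -8.91 and -6.62 in *hda6-9*, against -7.21 and -5.84 in *ros1-1* and -2.90 and -4.65 in C24. Its mean difference was 0.40 (adjusted p = 0.70) and the alleles differed by 6.04 (adjusted p = 0.034). The flowering activators *FT* and *SOC1* (listed as *AGL20*) were lowered by 1.51 and 1.57 on average but not in common. In *hda6-10* they differed from C24 by only 0.15 and -0.06. They were higher in *hda6-10* than in *hda6-9* by 2.07 (adjusted p = 0.024) and 1.86 (adjusted p = 0.029). With genotype as a random block neither was called (adjusted p = 0.25 and 0.20). With normexp correction *FT* differed by -0.55 and was not called. The allele arrays lie on different slides, so these differences cannot be told apart from slide.

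The transcripts lowered in common included genes of defence. Of 16 tested defence and jasmonate genes, 8 were lowered and none was raised, 3 of them in common by their brightest probe. Over all genes tested, 1.62% were lowered, and 0.756% were lowered in common. The list's median was -1.39, against 0.025 for all genes. This list was drawn up with results of these data known, so its count is a description. AT2G38240 (*JOX4*), a jasmonate oxidase, fell by 4.96 (standard error 0.56, adjusted p = 0.0034), with -3.94 and -4.74 in *hda6-10* and -7.93 and -5.63 in *hda6-9*, against 0.09 and -0.86 in *ros1-1* and -0.51 and -1.12 in C24. *WRKY70*, a transcription factor between salicylic acid and jasmonate responses, read 1.96, 2.19, 2.38 and 2.48 on the *hda6* arrays, against 3.6, 3.53, 3.94 and 3.76 on the control arrays, a fall of 1.46 (standard error 0.081, adjusted p = 0.00021). Both sides were tight for this bright transcript, and no array overlapped. *CYP71A12*, a P450 of camalexin-related synthesis, fell by 2.25, but only by 0.72 within the slide of *hda6-9* and *ros1-1*, and the call was lost with 6 of the 8 arrays left out in turn (adjusted p up to 0.086). *VSP1*, a storage protein with a near-identical copy in *VSP2*, fell by 2.09 at a dim probe in common and by 1.23 at its brightest, and the call of the dim probe was lost with 7 of the 8 arrays left out in turn and with normexp correction (-0.50). *PR1*, *PR5* and *PAD3* were not called, at -1.53, -1.48 and -2.14 (adjusted p = 0.075, 0.10 and 0.076).

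Among 21 genes of salicylic acid and systemic resistance, 12 were lowered and none was raised, 10 of them in common. *ALD1* (AT2G13810), which starts pipecolic acid synthesis, read -7.00 and -6.48 in *hda6-10* and -7.02 and -6.92 in *hda6-9*, against -3.51 and -3.57 in *ros1-1* and -3.14 and -4.00 in C24, a fall of 3.30 (standard error 0.21, adjusted p = 0.00039). *FMO1*, which turns pipecolic acid into its mobile N-hydroxy form, fell by 3.13, but its arrays varied from -5.25 to -1.80 with *hda6* alleles, against -1.28 to 0.26 in the controls, and the call was lost with 7 of the 8 arrays left out in turn (adjusted p up to 0.10). *PBS3*, an enzyme of salicylic acid synthesis, fell by 1.69, *UGT76B1*, which glucosylates salicylic acid, by 2.01 and *GRX480*, a glutaredoxin, by 2.26, a call lost with 3 of the 8 arrays left out in turn (adjusted p up to 0.061). *NIMIN1* and *NIMIN2*, whose products bind NPR1, fell by 1.94 and 1.26, whereas *NPR1*, *EDS1* and *ICS1* differed by -0.31, -0.32 and -0.46. *PAD4* fell by 1.18 and reached 2-fold in *hda6-10* against both controls but not in *hda6-9* against *ros1-1*.

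In the WRKY family 10 of 63 tested genes were lowered and none was raised, 7 in common. After *WRKY70* these were *WRKY51* with a fall of 2.33, *WRKY59* with 2.1, *WRKY75* with 1.91, *WRKY38* with 1.76, *WRKY8* with 1.52 and *WRKY54*, the closest relative of *WRKY70*, with 1.48. *WRKY51* had -3.85, -3.77, -4.62 and -3.74 on the *hda6* arrays, against -1.27, -1.91, -1.30 and -2.19 on the control arrays, with no overlap. The calls of *WRKY75* and *WRKY8* were lost with 4 and 5 of the 8 arrays left out in turn (adjusted p up to 0.084), and that of *WRKY8* with normexp correction (-0.78).

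Among the other transcripts with large falls, *NATA1*, an acetyltransferase of ornithine, fell by 4.02 (standard error 0.98, adjusted p = 0.042), with -4.67, -4.28, -5.20 and -3.37 on the *hda6* arrays, against 1.71 and -1.87 in *ros1-1* and 0.56 and -1.86 in C24. Its control arrays spread over more than 3 log2 units, and the call was lost with 7 of the 8 arrays left out in turn (adjusted p up to 0.12). *ELI3-2*, an alcohol dehydrogenase induced by elicitors, fell by 3.75 (adjusted p = 0.00035), with -4.34 and -4.33 in *hda6-10* and -7.32 and -7.29 in *hda6-9*, against -2.68 and -1.67 in *ros1-1* and -1.74 and -2.21 in C24, so the fall was larger in *hda6-9* (difference between alleles 2.97, adjusted p = 0.023). *PCR1*, a cadmium resistance protein, fell by 3.41, with -3.28, -3.92, -3.50 and -1.76 on the *hda6* arrays, against -0.87 and -2.35 in *ros1-1* and 2.47 and 1.92 in C24. The *hda6* and *ros1-1* arrays of this gene overlapped, and with *ros1-1* as the only control it differed by -1.51 and was not called (adjusted p = 0.18). AT1G30700, a berberine bridge enzyme-like protein, fell by 3.03, AT5G57510 by 2.96 and *LAS1*, a lanosterol synthase, by 2.95. AT1G76470 fell by 3.45 at one probe, and a dimmer probe that no *hda6* array detected was at least 14.3-fold lower. *MIOX4*, a myo-inositol oxygenase, was at least 20.0-fold lower, *CYP76C5* at least 4.48-fold, AT3G19690 at least 4.38-fold and *UGT76E1* at least 4.28-fold lower, but none of the 4 was called with normexp correction, where *MIOX4* differed by -1.44 (adjusted p = 0.11) and the others by -0.26 to -0.33 on the log2 scale. The calls of *MIOX4* and *CYP76C5* were lost with 4 and 6 of the 8 arrays left out in turn (adjusted p up to 0.083).

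A pair of chromatin genes chosen after their values were seen was also lowered in common. *IBM1* (AT3G07610), a histone demethylase that keeps gene bodies free of non-CG methylation, read -1.91, -1.86, -2.00 and -2.12 on the *hda6* arrays, against -0.34, -0.30, -0.68 and -0.59 on the control arrays, a fall of 1.49 (adjusted p = 4.84e-05). With the probes of a gene averaged, it was no longer called. *MEA*, an imprinted Polycomb gene, fell by 2.85 (adjusted p = 0.023), with 1 of 4 *hda6* arrays above background, a call lost with 6 of the 8 arrays left out in turn (adjusted p up to 0.075) and with normexp correction (-0.13).

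Of 4 root markers, 1 was lowered. *RHD6*, a transcription factor of root hair formation, was lowered by 1.59 (adjusted p = 0.0029, not in common), with 2 of 4 *hda6* arrays above background, and with normexp correction it differed by -0.16 (adjusted p = 0.50) and was not called. *COBL9* and *EXP7* differed by -1.0 and -1.03 without a call, while *PYK10* differed by 0.36. The summed signal of these 4 root markers was 27.4 to 43.5 on the *hda6* arrays and 23 to 27.3 on the control arrays. These sums are in multiples of the 75th percentile, and each of the 4 was detected on some array. *PYK10* was by far the brightest, with a mean log2 signal of 4.64 on the control arrays. *COBL9*, *EXP7* and *RHD6* read -4.01, -5.22 and -6.26 there. The sum therefore follows *PYK10* and does not show the negative differences of *COBL9*, *EXP7* and *RHD6*. The part of root markers in the lowered transcripts was not tested.

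The share of probes changed in common varied with the kind of accession they carry. Of 633 tested probes with no accession, 100 (15.8%) were raised in common, of 3752 probes from expressed sequence tags, cDNA or assembled transcripts 196 (5.22%), of 383 RefSeq noncoding RNA probes 19 (4.96%), and of 29655 probes matched to protein-coding genes 707 (2.38%). The shares lowered in common were 0.79%, 0.373%, 1.31% and 0.647%. What the probes without an accession read is not given in the sources used here. By chromosome, 2.6% to 3.43% of the genes tested were raised in common, with the lowest share on chromosome 4 and the highest on chromosome 3, and 0.433% to 0.968% were lowered. Of the 623 genes raised in common by their brightest probe, 106 (17%) stood next to another such gene among the genes tested, in 48 runs of at most 3, as did 22 of 162 lowered genes (13.6%) in 11 runs.

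**Figure D4:**
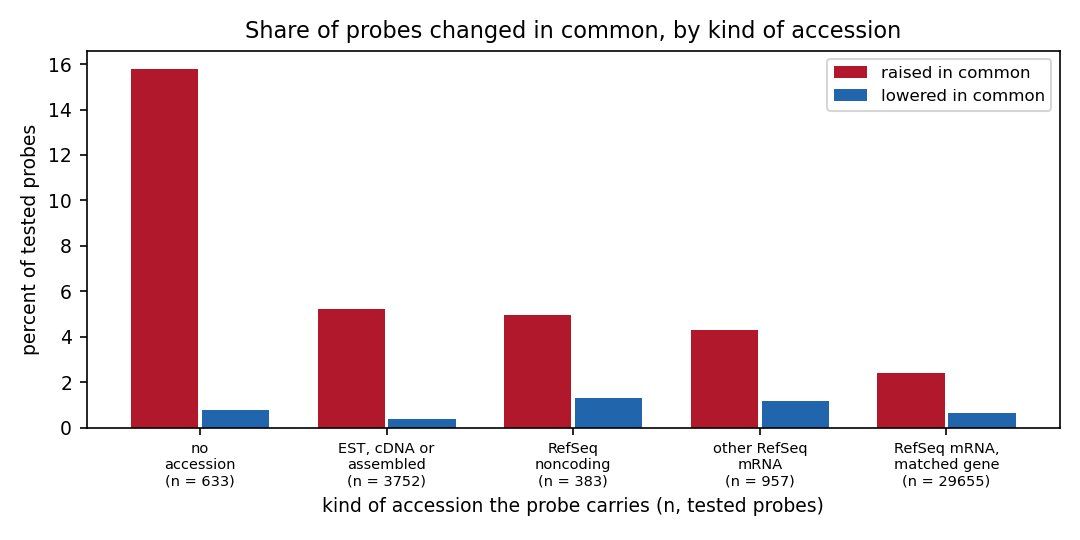
Percent of tested probes raised (red) and lowered (blue) in common, by the kind of accession a probe carries, with the number of tested probes under each pair of bars. Probes with no accession have 15.8% raised, against 2.38% of probes matched to a protein-coding gene.

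Some of these runs join genes named above. *GRP19*, *GRP20* and AT5G07570, which rose by 5.39, follow each other on chromosome 5, and *CLSY1*, AT3G42723 and AT3G42725, which rose by 1.62, on chromosome 3. *QQS* stood next to AT3G30770, which read -4.32, -3.99, -3.65 and -4.04 on the *hda6* arrays, against -7.34, -7.38, -7.40 and -6.86 on the control arrays, a rise of 3.25 (adjusted p = 0.00013). The *COR15* genes form a pair, as do *HDA18* and AT5G61090, and *CYP705A28*, *CYP705A30* and *CYP705A32* form a run of 3 with rises of 1.32, 1.51 and 2.21. Probes for tandem copies can share target sequence, so neighbouring rises in such families are not independent readings.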

How the data were processed

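Seedling RNA (12 days old, the last 1 day at 4 °C) was hybridized with Cy3 label to one-colour Agilent Arabidopsis arrays, 2 for each of 4 genotypes. The authors deposited scanner output of Feature Extraction 10.7.1.1 with intensity values on a linear scale, background-subtracted and detrended, and a combined matrix that equals the background-subtracted intensity. Each array held 45220 spots, of which 1417 were controls. Outlier spots (25 to 49 per array) were set aside, gProcessedSignal was log2-transformed, the array's 75th percentile (2004 to 3681) was subtracted, and spots of a probe were averaged. limma 3.58.1 in R 4.3.3 fitted a mean per genotype to all 8 arrays (4 residual and 1.8 prior degrees of freedom), and the contrast was the mean of both alleles minus the mean of *ros1-1* and C24, with Benjamini-Hochberg adjustment over all tested probes. The median spread within a genotype was 0.133 log2 units, and the number of arrays limits the precision. Differences between alleles and between controls came from the same fit. For named genes where a side had no array well above background, a lower bound replaces the fold, while counts, medians and lists use the measured signals.

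Accessions matched 34285 probes to protein-coding genes of TAIR10.1, used for names and gene order only, since the array design refers to another build. In lists the brightest tested probe stands for a gene. Named genes were the 10 largest rises and falls in common detected on all arrays, the 5 largest bounds each way, up to 4 members in common per list, and genes the study follows. The comparison, the lists and the rule were chosen with earlier results of these data known, and genes named after their values were seen are marked as such. Alternatives were other background, scaling, filter and threshold settings, other error models, each genotype as the only allele or control, and each array left out. Mean spot brightness is not among the columns, so normexp used median spot and background brightness with an offset of 50. Because the offset is added to every signal, log2 differences between dim signals shrink, and a dim probe can lose its call by this setting alone. On simulated data the model called 82 of 100 probes changed by 1.5 and 92 of 100 changed by 3 on the log2 scale, and 1 of the unchanged among 35250 probes. The simulated noise was independent between arrays, with no differences between slides or between lines of a side. These rates therefore do not cover false calls from such differences. No probe sequence is in the sources used here.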

Additional observations from a re-analysis of the deposited data

Results flagged for a closer look

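Flags of an array that stands apart within its side of 4 arrays arise by chance in about 1 of 20 sets, and none was weighed further. The value is the gap to the nearest array over the whole range. Among *hda6* arrays, *hda6-9* replicate 1 stood apart for AT3G42723 (0.91, at -1.32) and *WRKY51* (0.882, at -4.62), and *hda6-10* replicate 2 for *VIM5* (0.845, at -3.44). Among control arrays, C24 replicate 1 stood apart for *SDC* (0.879, at -8.96), C24 replicate 2 for AT3G30770 (0.89, at -6.86), and *ros1-1* replicate 1 for *MS2* (0.878, at -9.56) and *AGL64* (0.865, at -9.53). The arrays of *SDC*, *MS2* and *AGL64* in question were not well above background.

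The alleles differed in a test of the difference itself (*hda6-10* minus *hda6-9*, limma, adjusted over all tested probes) for *CBF3* by 6.04 (adjusted p = 0.0339), for the dimmer *RD29A* probe by 5.92 (adjusted p = 0.0183), for *RD29B*, a neighbour of *RD29A*, by 2.46 (adjusted p = 0.0311), for *ELI3-2* by 2.97 (adjusted p = 0.0233), for *FT* by 2.07 (adjusted p = 0.0236), for *SOC1* by 1.86 (adjusted p = 0.0289), for *DRM1* by -1.02 (adjusted p = 0.0441) and for the probes of *HDA6* by -2.83 and -2.64 (adjusted p = 0.000423 each). Each genotype of these pairs has 2 arrays and the alleles share no slide, so slide and allele cannot be told apart here. The dimmer *RD29A* probe was not well above background in *hda6-9*, and at the brighter probe the alleles were apart by 4.19 (adjusted p = 0.053).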

How the results depend on the processing

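Main counts were 1493 probes raised and 518 lowered, 1063 and 227 of them in common. Normexp correction gave 699 and 180 (448 and 69 in common), with 447 and 67 of the same probes in common; the cause was not tested. Restricting the test to probes detected on all 8 arrays gave 815 raised (508 and 149 in common). The main fit already held 812 raised probes detected on all 8 arrays, 508 of them in common. Genes in place of probes, 21435 in number, gave 917 raised and 355 lowered (628 and 161 in common). With genotype as a random block, 209 were lowered (137 in common), and with slide as a fixed block, which leaves out C24, 299 were lowered. *hda6-9* as the only allele gave 517 lowered in common. At an adjusted p under 0.01, 220 were lowered (104 in common). A 4-fold limit gave 733 and 106 (544 and 39 in common), and no minimum fold 4153 and 2156 (3888 and 1940 in common). Requiring each of the 4 contrasts to pass its own test left 74 lowered in common, and requiring no overlap instead of 2-fold gave 413. Leaving out each array gave 1318 to 1513 raised and 304 to 488 lowered, with 972 to 1079 and 110 to 220 in common; the lowest lowered counts, 304 and 110, came without C24 replicate 1. Quantile normalization moved the raised share of calls to 64.2%, against 74.2%, and a 4-fold limit and the random block of genotype to 87.4% and 84.8%. At an unadjusted p under 0.05 and 2-fold, 1574 were raised and 752 lowered. The outlier spots counted in the filter on dim signals, an alternative added after seeing the data, gave 1496 and 519. The dimmer *RD29A* probe reversed to -1.06 with *hda6-9* as the only allele. Over all genes named, 2243 of the values under an alternative were counted as unchanged, 258 as having lost and 11 as having gained a call. For probes without a call in the main fit, the count of unchanged values did not require the same sign. Under the alternatives, both *HDA6* probes and *CBF3* took values of either sign, and none of these was counted as reversed. Replicate numbers do not pair the samples (correlations between genotypes -0.375 to 0.0626), and with a replicate block the counts were 1415 and 418 (1039 and 190 in common). For the 272 raised probes that no control array detected, signal over background allows only bounds.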
